A study of Mus musculus with 32 samples.

Results

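Within each of 8 mice, RNA from the LSK gate of the bone marrow was set against RNA from the CMP gate of the same animal. LSK cells are lineage-negative cells that carry Sca-1 and Kit and include the haematopoietic stem cells and multipotent progenitors, and CMP are common myeloid progenitors further along the path to granulocytes, monocytes, red cells and platelets. The 8 LSK and 8 CMP libraries were taken by their labels, 16 of the 32 libraries of the series. The series also holds MEP, which give rise to megakaryocytes and red cells, and GMP, which give rise to granulocytes and monocytes. All mice were homozygous for a floxed Cxadr gene (Cxadr fl/fl), 4 of them Mx1-Cre-negative controls and 4 Mx1-Cre-positive, labelled Cxadr ko. Mx1-Cre is a Cre recombinase under the interferon-inducible Mx1 promoter, active in blood cells and in other interferon-responsive tissues, so deletion by it is not confined to progenitors. The labels do not state the age or sex of the mice, any inducing treatment, the staining behind each gate or the number of sorted cells.

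As background, most blood stem cells divide slowly. Stem and multipotent progenitor cells share a set of transcription factors (HLF, MECOM, MEIS1, HOX proteins) and receptors for signals from the niche. Commitment to the myeloid line brings the factors C/EBPα and PU.1, receptors for GM-CSF and M-CSF, and proteases packed into primary granules, among them myeloperoxidase, elastase and cathepsin G. Cell division, ribosome production and respiration usually rise with that commitment.

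Each library held 8744480 to 13641248 reads assigned to genes (LSK mean 11258000, CMP mean 10146000), recovered from the deposited normalized counts, in which 1 read was worth 0.814 to 1.19. More genes had at least 1 read in LSK (24840 ± 851, SD, n = 8) than in CMP (24008 ± 988), in 7 of 8 mice (exact paired permutation test, two-sided p = 0.0156, adjusted over 4 library measures p = 0.0208). Without mouse 1 of both genotypes the exact p was 0.0625. Reads of mitochondrially encoded protein genes made up 1.28% ± 0.23 of LSK and 1.62% ± 0.20 of CMP reads (SD, n = 8), lower in LSK in 8 of 8 mice (exact permutation p = 0.00781, the smallest that 8 pairs allow; adjusted p = 0.0208). Immunoglobulin reads took 0.0357% to 12.5% of the LSK libraries, with the highest share in control mouse 1, and 0.0425% to 0.287% of the CMP libraries.

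The gate labels were checked against marker genes first; levels here and below are normalized counts, given as the lowest, highest and median of 8 libraries. These genes define the sorts or are closely tied to them, so their differences are a check of the labels. Ly6a, which encodes Sca-1 (chromosome 15), stood from 465 to 1206 (median 585) in LSK and from 20.3 to 78.3 (median 39.8) in CMP. Kit, the stem cell factor receptor, stood from 1996 to 2561 (median 2113) in LSK and from 1397 to 1845 (median 1609.7) in CMP. The LSK libraries were above the CMP libraries for both genes, with no overlap (log2 difference 3.96 ± 0.17 (SE), limma adjusted p = 7.15e-09 for Ly6a; log2 difference 0.47 ± 0.036 (SE), limma adjusted p = 1.01e-06 for Kit). Cd34, the progenitor antigen, was close in the gates (from 9777 to 12696 (median 11477) in LSK and from 8876 to 11579 (median 10082) in CMP; log2 difference 0.17 ± 0.031 (SE), limma adjusted p = 0.000843), and the groups overlapped. The Fc receptor genes Fcgr3 and Fcgr2b, whose proteins CD16 and CD32 separate CMP from GMP, were lower in LSK (log2 difference -3.0 and -1.17), and Fcgr3 was highest in the GMP libraries, at 3993 ± 667 normalized counts (SD, n = 8). Il7r, the interleukin-7 receptor of lymphoid progenitors, had a log2 difference of -0.60 and was not called (limma adjusted p = 0.12). Of the markers of stem and multipotent cells, Procr, Hlf and Mecom were each above the CMP range in every LSK library.

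The MEP libraries, used here only to place levels, go against their label in several markers. They held 48429 ± 6712 (SD, n = 8) normalized counts of the granule gene Mpo and 8638 ± 943 (SD, n = 8) of Cd34, against CMP means of 55942 and 10004. Klf1, an erythroid transcription factor, was at 114 ± 52.4 (SD, n = 8) in the libraries labelled MEP, against means of 57.4 in CMP and 118 in GMP.

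Cxadr (ENSMUSG00000022865, chromosome 16, 78301489 to 78359774, GRCm38, protein coding) encodes the coxsackievirus and adenovirus receptor, a junctional adhesion protein. Its level was low in both gates and did not separate them (from 12.3 to 54.5 (median 22.9) in LSK and from 14.2 to 39.5 (median 26.6) in CMP; log2 difference 0.085 ± 0.32 (SE), limma adjusted p = 0.855, 95% interval -0.60 to 0.77; 5 of 8 mice higher in LSK). The LSK level averaged 28.7 ± 14.7 in control and 30.5 ± 18.1 in Cxadr-ko mice (SD, n = 4 each). The CMP level averaged 23.5 ± 6.61 in control and 29.6 ± 12.005 in Cxadr-ko mice (SD, n = 4 each). The labels do not name the floxed exons, and counts over the whole gene take reads from outside it, so these values do not check the genotype labels.

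LSK and CMP differed widely. Of 17225 genes tested, 3905 (22.7%) were higher and 3062 (17.8%) lower in LSK at a limma adjusted p under 0.05 with the mouse as a block, 40.4% in all. Differences of at least 2-fold were more often upward, with 1360 genes (7.9%) higher and 353 (2.05%) lower. The log2 difference used throughout is LSK minus CMP, from log2 of the normalized count plus 1, a scale on which changes of low genes are understated. The split of the calls depends on the scaling: with quantile normalization 3214 genes were higher and 4177 lower (985 and 607 at 2-fold), and that scaling moved the median of all genes from 0.03 to -0.07, a shift of -0.10. List medians within that shift are to be read against it. For 1016 genes (5.9%) every LSK library was above every CMP library, and for 719 (4.17%) every LSK library was below. Counts of list members below are to be read beside these 2 shares and the 22.7% and 17.8% of all genes called higher and lower.

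**Figure D1:**
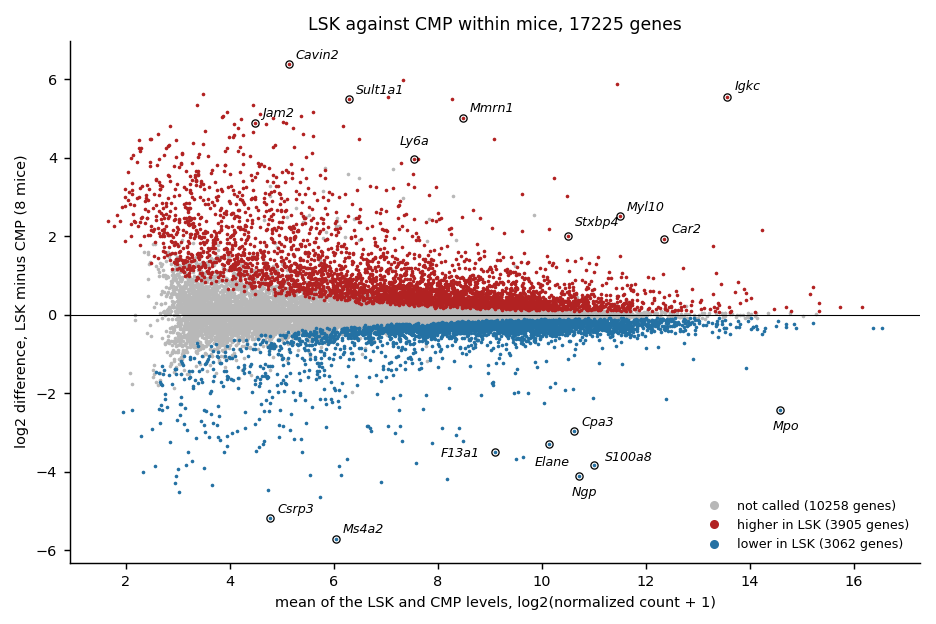
Each point is 1 of 17225 genes, placed by its mean level in the LSK and CMP gates, log2(normalized count + 1), on the x axis and by its log2 difference LSK minus CMP over 8 mice on the y axis. Red points are the 3905 genes called higher in LSK, blue points the 3062 called lower and grey points the 10258 not called; Cavin2 lies at the top and Ms4a2 at the bottom.

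The 6 genes of lowest p were 4 that were higher and 2 that were lower in LSK. Myl10, which encodes a myosin regulatory light chain (chromosome 5, 136693146 to 136701094, protein coding), stood from 2465 to 9928 (median 7311) in LSK and from 423 to 1793 (median 1313) in CMP. It was above the CMP range in every LSK library (log2 difference 2.51 ± 0.05 (SE), limma adjusted p = 2.82e-11). Stxbp4, a syntaxin-binding protein gene (chromosome 11, 90476492 to 90638084), stood from 2423 to 3392 (median 2944) in LSK and from 523 to 896 (median 721) in CMP (log2 difference 1.99 ± 0.046 (SE), limma adjusted p = 7.99e-11). Mecom, the EVI1 transcription factor of stem cells (chromosome 3, 29951296 to 30548008), stood from 393 to 806 (median 643) in LSK and from 75.8 to 160.3 (median 108) in CMP (log2 difference 2.45 ± 0.068 (SE), limma adjusted p = 3.93e-10). These LSK and CMP values did not overlap. Hes1, a repressor induced by Notch signalling (chromosome 16, 30064384 to 30067796), ran from 475 to 1276 (median 892) in LSK and from 75.98 to 224 (median 159) in CMP (log2 difference 2.49 ± 0.074 (SE), limma adjusted p = 6.86e-10). In the other direction Mpo, myeloperoxidase (chromosome 11, 87793581 to 87804413), ran from 6719 to 12690.0 (median 10815) in LSK and from 43928 to 64617 (median 57208) in CMP (log2 difference -2.42 ± 0.061 (SE), limma adjusted p = 1.75e-10). F13a1, the coagulation factor XIII A chain (chromosome 13, 36867178 to 37050244), ran from 57.5 to 233 (median 164) in LSK and from 1051 to 2397 (median 1804) in CMP (log2 difference -3.48 ± 0.10 (SE), limma adjusted p = 6.86e-10). Each of the 6 had the same direction in 8 of 8 mice, which their choice by lowest p partly fixes.

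**Figure D2:**
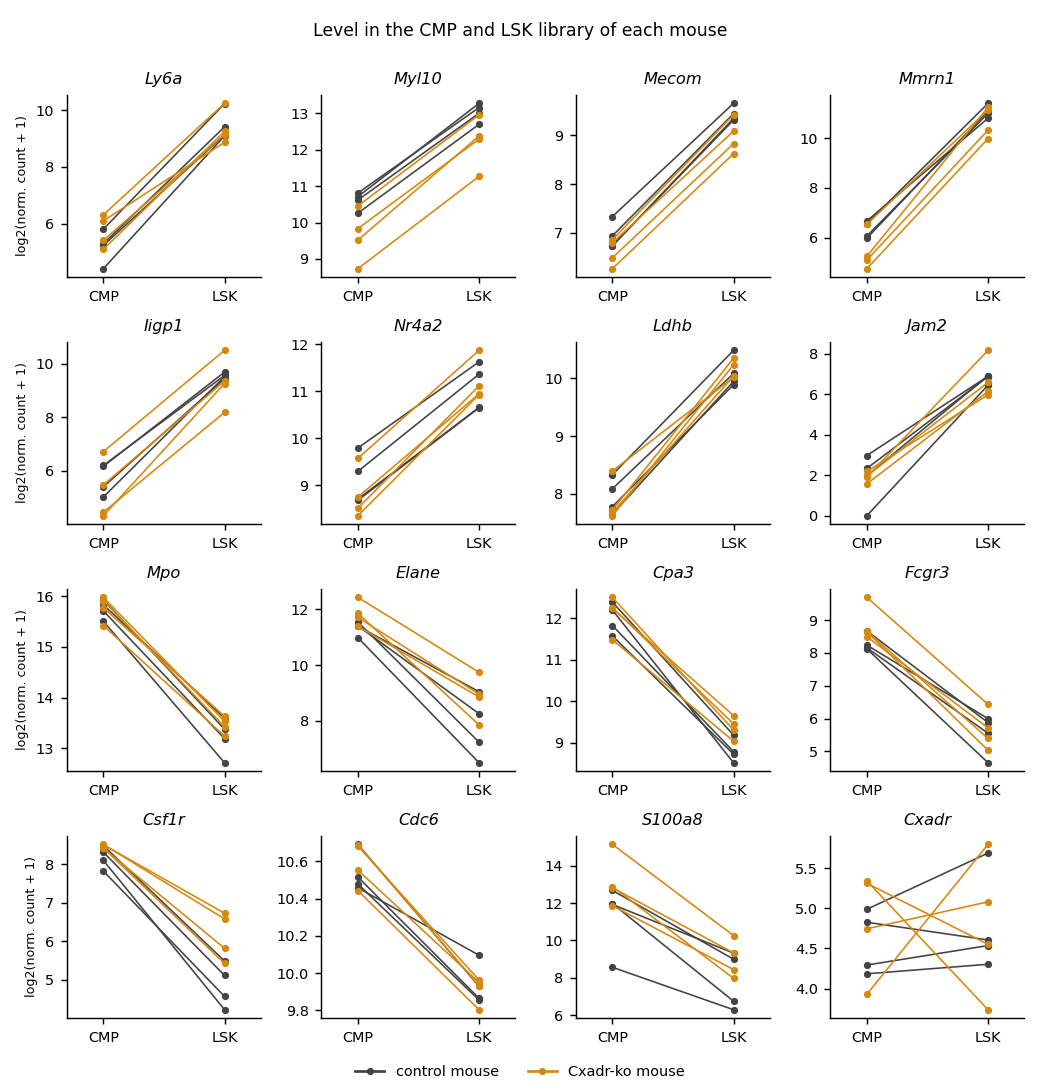
Each panel gives 1 gene, with the level in log2(normalized count + 1) on the y axis; a line joins the CMP and the LSK library of 1 mouse, grey for control and orange for Cxadr-ko mice. The lines of Ly6a, Myl10, Mecom, Mmrn1, Iigp1, Nr4a2, Ldhb and Jam2 go up and those of Mpo, Elane, Cpa3, Fcgr3, Csf1r, Cdc6 and S100a8 go down in all 8 mice, while the lines of Cxadr cross.

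The 12 largest differences upward included those of Cavin2, Sult1a1 and Mmrn1. Cavin2, a coat protein of caveolae, ran from 55.8 to 679 (median 247) in LSK and from 0 to 11.7 (median 1.72) in CMP (log2 difference 6.37 ± 0.38 (SE), limma adjusted p = 1.44e-07). Sult1a1, a sulfotransferase, ran from 179.9 to 1331 (median 453) in LSK and from 1.98 to 20.3 (median 9.70) in CMP (log2 difference 5.49 ± 0.23 (SE), limma adjusted p = 6.77e-09). Mmrn1, multimerin of platelet granules, ran from 1009.8 to 2699.5 (median 2121) in LSK and from 25.8 to 101 (median 63.7) in CMP (log2 difference 5.01 ± 0.15 (SE), limma adjusted p = 7.47e-10). For these 3 genes the gates did not overlap, and the GMP and MEP means (0.116 and 3.58 for Cavin2, 26.3 and 29.8 for Sult1a1 and 15.3 and 51.6 for Mmrn1) lay far below every LSK value. Others of the 12 largest were the long noncoding RNAs Gm35551 (5.33) and Gm10419 (5.11), Cpne8 (5.05), the luteinizing hormone receptor gene Lhcgr (4.90), the junctional adhesion molecule Jam2 (4.89), the transporter Abcg3 (4.88), the zinc finger gene Zfp612 (4.84), the homeobox gene Nkx2-3 (4.79) and F830016B08Rik (4.76), all higher in 8 of 8 mice. The rule for the 12 required a higher value in LSK in 8 of 8 mice, so that agreement is fixed by the choice. Of the 12, F830016B08Rik alone overlapped between the gates, which the choice by largest difference partly fixes. Jam2, Lhcgr and Gm35551 stayed under 10 normalized counts in every CMP library. They passed the filter of 10 in at least 4 libraries through their LSK values alone, so their differences are partly fixed by it. Of the 1360 genes at least 2-fold higher in LSK than in CMP, 1318 (96.9%) had their highest mean in LSK among the 4 gates, 21 in GMP and 21 in MEP. These genes were chosen for high LSK and low CMP values in the same libraries, so this share is partly fixed by the choice.

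The largest falls were of 2 kinds. Ms4a2 and Fcer1a, the β and α chains of the high-affinity IgE receptor of mast cells and basophils, both fell. Ms4a2 ran from 1.03 to 53.6 (median 3.67) in LSK and from 196 to 500.5 (median 375) in CMP (log2 difference -5.70 ± 0.47 (SE), limma adjusted p = 1.73e-06). Fcer1a ran from 3.59 to 39.1 (median 15.6) in LSK and from 159 to 338 (median 252) in CMP, with a difference of -4.09. Csrp3, a LIM domain protein gene, had a difference of -5.18. Its LSK values were at most 9.57, so it passed the filter through its CMP values alone. None of these 3 overlapped between the gates, which their choice by largest difference partly fixes. Their GMP means (1444, 1063 and 756) were above every CMP value. The other 9 were genes of maturing neutrophils, Cd177, Mmp9, Mmp8, Retnlg, Ngp, Wfdc21, Lcn2, S100a8 and Ltf, with log2 differences from -4.63 to -3.76. Of the 353 genes at least 2-fold lower in LSK than in CMP, 208 (58.9%) had their highest mean in GMP, 86 (24.4%) in CMP and 59 (16.7%) in MEP. The choice by low LSK values in the same libraries works against LSK here, so these shares are partly fixed as well.

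Transcription factors of stem and multipotent cells were mostly higher in LSK. Of 25 transcription factors of stem and multipotent progenitor cells tested, 21 were higher in LSK, 1 was lower and 3 were not called, with a median log2 difference of 0.93 (0.58 to 1.05 in single mice), beside a median of 0.03 over all genes tested and 22.7% of all genes called higher. In 13 of the 25 every LSK library was above every CMP library, beside 5.9% of all genes tested. Hlf, a PAR bZIP factor, ran from 895 to 1518 (median 1367) in LSK and from 189.6 to 392 (median 316) in CMP (log2 difference 2.08 ± 0.088 (SE), limma adjusted p = 7.45e-09). Hoxa10 and Hoxa9, homeobox factors of the progenitor programme, differed by 2.46 and 0.79, Meis1, a HOX cofactor, by 0.95 and Myct1 by 1.32. Meis1 thus stood at 5828 ± 603 (SD, n = 8) in LSK but still at 3012 in CMP. Runx1, required for the first blood stem cells, went the other way, from 1368 to 1848 (median 1647) in LSK and from 1793 to 2727 (median 2313) in CMP (log2 difference -0.49 ± 0.05 (SE), limma adjusted p = 8.83e-06), lower in 8 of 8 mice with overlapping ranges.

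Surface and membrane genes of the same cells followed. Of 24 surface and membrane genes of stem and multipotent progenitor cells tested, 19 were higher in LSK, 2 were lower and 3 were not called, with a median log2 difference of 0.76 (0.55 to 1.03 in single mice). Esam, an endothelial cell adhesion molecule that marks stem cells, ran from 185 to 531 (median 412) in LSK and from 26.7 to 84.3 (median 53.7) in CMP (log2 difference 2.79 ± 0.16 (SE), limma adjusted p = 1e-07). Procr, the protein C receptor, ran from 249 to 379.7 (median 311) in LSK and from 32.2 to 72.6 (median 51.4) in CMP (log2 difference 2.64 ± 0.15 (SE), limma adjusted p = 8.35e-08). The gates did not overlap for either gene. Slamf1, the CD150 antigen of stem cells, differed by 3.49, Abcg2, the efflux pump behind the side population, by 1.09 and Angpt1, angiopoietin 1, by 0.95. Among the genes lower in LSK was Cd48, a SLAM family antigen of committed progenitors, which ran from 1165 to 2373 (median 1642) in LSK and from 2734 to 3529 (median 2979.9) in CMP (log2 difference -0.85 ± 0.085 (SE), limma adjusted p = 7.89e-06). All LSK libraries were below all CMP libraries for it.

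Primary granule genes were lower in LSK but far from absent. Of 22 primary granule genes of granulocyte-monocyte progenitors tested, 2 were higher in LSK, 18 were lower and 2 were not called. The median log2 difference was -1.53 (-1.71 to -0.97 in single mice). All 8 LSK libraries were below all 8 CMP libraries for 13 of the 22, beside 4.17% of all genes tested. Elane, neutrophil elastase, ran from 88.9 to 853 (median 383) in LSK and from 2027 to 5522 (median 2852) in CMP (log2 difference -3.29 ± 0.23 (SE), limma adjusted p = 5.04e-07). Ctsg, cathepsin G, ran from 1570.2 to 3372 (median 2568) in LSK and from 9874 to 12782 (median 10921) in CMP (log2 difference -2.14 ± 0.089 (SE), limma adjusted p = 6.77e-09). Prtn3, proteinase 3, ran from 4267 to 6046 (median 5204) in LSK and from 9786 to 13826 (median 11139) in CMP (log2 difference -1.14 ± 0.037 (SE), limma adjusted p = 9.67e-10). Plac8, of the same progenitors, differed by -1.35 and still stood at 9737 ± 1889.7 (SD, n = 8) in LSK. Ms4a3 and Igsf6, genes of granulocyte-monocyte progenitors, differed by -3.22 and -3.05. The 2 higher members were Gstm1, a glutathione transferase (log2 difference 0.40 ± 0.05 (SE), limma adjusted p = 5.12e-05), and Ctsc, cathepsin C, which activates the granule proteases (log2 difference 0.35 ± 0.051 (SE), limma adjusted p = 0.000168). Summed over the list, CMP exceeded LSK by 2.25- to 2.75-fold in the single mice, and the GMP libraries held 337198 to 504074 normalized counts against 126816 to 172131 in CMP. In bulk samples such as these, fewer cells of a kind and less RNA per cell cannot be told apart.

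Myeloid transcription factors moved in both directions. Of 20 myeloid transcription factors tested, 4 were higher in LSK, 7 were lower and 9 were not called. Over all genes 22.7% were called higher and 17.8% lower. The list had a median log2 difference of -0.079 (-0.51 to 0.027 in single mice). This median became 0.03 without mouse 1 of both genotypes and ranged from -0.24 without Cxadr-ko mouse 4 to -0.032 without control mouse 1. Irf8, the factor of monocyte and dendritic cell progenitors, ran from 456 to 1288 (median 746) in LSK and from 2155 to 4338 (median 2675) in CMP (log2 difference -1.89 ± 0.16 (SE), limma adjusted p = 1.63e-06). Cebpa, the gene of C/EBPα, ran from 62.7 to 146 (median 100.2) in LSK and from 183 to 331 (median 270.1) in CMP (log2 difference -1.37 ± 0.12 (SE), limma adjusted p = 2.13e-06), and Spi1, the gene of PU.1, from 410.2 to 710.0 (median 554) in LSK and from 711 to 1124 (median 858) in CMP (log2 difference -0.69 ± 0.054 (SE), limma adjusted p = 1.06e-06). In these 3 genes every LSK library was below every CMP library. Zeb2 (-1.17) and Cebpe, a factor of late granulocytes (-3.0; CMP median 32.4), were also lower. Higher were Klf4, a monocyte and immediate early factor (log2 difference 1.31 ± 0.059 (SE), limma adjusted p = 1.27e-08), and Nfe2, a megakaryocytic and erythroid factor (log2 difference 0.43 ± 0.056 (SE), limma adjusted p = 6.42e-05). Irf4 was higher at a low level (from 4.89 to 141 (median 27.2) in LSK and from 0 to 11.9 (median 6.41) in CMP; log2 difference 2.52 ± 0.60 (SE), limma adjusted p = 0.00525).

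Of 20 myeloid growth factor and Fc receptors tested, 5 were higher in LSK, 9 were lower and 6 were not called, with a median log2 difference of -0.21 (-0.34 to -0.029 in single mice). Csf1r, the M-CSF receptor, ran from 17.7 to 105 (median 43.04) in LSK and from 226 to 365 (median 341) in CMP (log2 difference -2.83 ± 0.20 (SE), limma adjusted p = 5.81e-07), with no overlap. Csf2rb, the shared β chain of the GM-CSF, IL-3 and IL-5 receptors, ran from 354 to 709 (median 438) in LSK and from 734 to 1262 (median 889) in CMP (log2 difference -0.97 ± 0.052 (SE), limma adjusted p = 6.17e-08). Il1r1, the interleukin-1 receptor, was higher in LSK, from 461 to 715 (median 559) in LSK and from 218 to 389.5 (median 300.3) in CMP (log2 difference 0.94 ± 0.10 (SE), limma adjusted p = 1.23e-05), as was Flt3, the receptor tyrosine kinase of multipotent and lymphoid-primed progenitors (log2 difference 0.41 ± 0.097 (SE), limma adjusted p = 0.0044; 7 of 8 mice).

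Erythroid genes did not move as a block. Of 19 erythroid genes tested, 7 were higher in LSK, 4 were lower and 8 were not called, with a median log2 difference of 0.48 (-0.0098 to 0.76 in single mice), and 8 of the 27 listed genes did not pass the filter. Gata1, the erythroid and megakaryocytic master factor, ran from 31.4 to 105 (median 60.9) in LSK and from 140.0 to 275 (median 176) in CMP (log2 difference -1.54 ± 0.17 (SE), limma adjusted p = 1.72e-05). Klf1 ran from 8.98 to 29.2 (median 16.9) in LSK and from 28.8 to 98.4 (median 49.6) in CMP (log2 difference -1.66 ± 0.24 (SE), limma adjusted p = 0.000155). Tfrc, the transferrin receptor, and Mfsd2b, a sphingosine-1-phosphate exporter of red cells and platelets, were also lower (-0.66 and -1.53). Car2, carbonic anhydrase 2, an abundant red cell enzyme, was instead higher, from 8000.3 to 12566 (median 9753) in LSK and from 2071 to 3176 (median 2637) in CMP (log2 difference 1.94 ± 0.06 (SE), limma adjusted p = 7.47e-10). The summed counts of the list in LSK, most of them from Car2, were 9538 to 14120 normalized counts.

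Megakaryocyte and platelet genes were higher in LSK or not called. Of 22 megakaryocyte and platelet genes tested, 15 were higher in LSK, none were lower and 7 were not called, with a median log2 difference of 0.70 (0.33 to 0.87 in single mice). The differences of the 22 ran from -0.26 to 5.01, and the members named below were picked among the called ones by lowest p. Without mouse 1 of both genotypes 10 of 21 were higher and none lower. The count was also 10 without Cxadr-ko mouse 1 or control mouse 1 alone, and 11 without control mouse 4. It was 12 with quantile normalization, with no filter and without the variance trend, and stayed at 15 without Cxadr-ko mouse 2 or 4. Besides Mmrn1, Vwf, von Willebrand factor, ran from 66.02 to 292 (median 107) in LSK and from 5.59 to 32.8 (median 12.5) in CMP (log2 difference 3.07 ± 0.31 (SE), limma adjusted p = 7.65e-06). Gp9, glycoprotein IX of its platelet receptor, ran from 51.7 to 114 (median 87.3) in LSK and from 13.9 to 51.1 (median 28.5) in CMP (log2 difference 1.48 ± 0.19 (SE), limma adjusted p = 4.77e-05). Rab27b, a GTPase of platelet granules, ran from 170.2 to 318 (median 259.6) in LSK and from 69.5 to 143 (median 86.3) in CMP (log2 difference 1.34 ± 0.19 (SE), limma adjusted p = 0.00013), and Gfi1b, a repressor needed for platelet formation, differed by 0.53. Vwf, Gp9 and Rab27b did not overlap between the gates.

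Among lymphoid priming genes, 10 of 23 tested were higher, 3 lower and 10 not called, with a median log2 difference of 0.18. In control mice 4 were called higher and 4 lower, beside 14.9% and 12.2% of all genes. In Cxadr-ko mice 8 were called higher and none lower, beside 15.5% and 11.3% of all genes. Lax1, an adaptor of lymphocyte receptor signalling, ran from 324 to 611 (median 389) in LSK and from 16.4 to 72.8 (median 48.7) in CMP (log2 difference 3.22 ± 0.17 (SE), limma adjusted p = 3.75e-08). Ltb, lymphotoxin β, ran from 697 to 1389 (median 916) in LSK and from 67.03 to 365 (median 158) in CMP (log2 difference 2.67 ± 0.23 (SE), limma adjusted p = 2.69e-06). Gata3, a T cell and stem cell factor, ran from 709 to 1121 (median 877) in LSK and from 230.5 to 476 (median 349.6) in CMP (log2 difference 1.40 ± 0.13 (SE), limma adjusted p = 4.24e-06). These 3 did not overlap. Dntt, terminal transferase of early lymphoid progenitors, overlapped at a high level in both gates (from 2478 to 4757 (median 3296) in LSK and from 749.9 to 2809.8 (median 1678) in CMP; log2 difference 1.08 ± 0.22 (SE), limma adjusted p = 0.00181). Tcf7, a T lineage factor, was lower in LSK (from 2.05 to 76.5 (median 31.6) in LSK and from 4.82 to 126 (median 79.8) in CMP; log2 difference -1.08 ± 0.31 (SE), limma adjusted p = 0.0137). Notch1 was lower as well (log2 difference -0.41 ± 0.13 (SE), limma adjusted p = 0.0205), but its call was lost in 3 of 8 fits that left out 1 mouse (adjusted p up to 0.0614). The median of this list fell to 0.08 without Cxadr-ko mouse 3 and to 0.07 without control mouse 4, and without mouse 1 of both genotypes 1 member was lower.

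**Figure D3:**
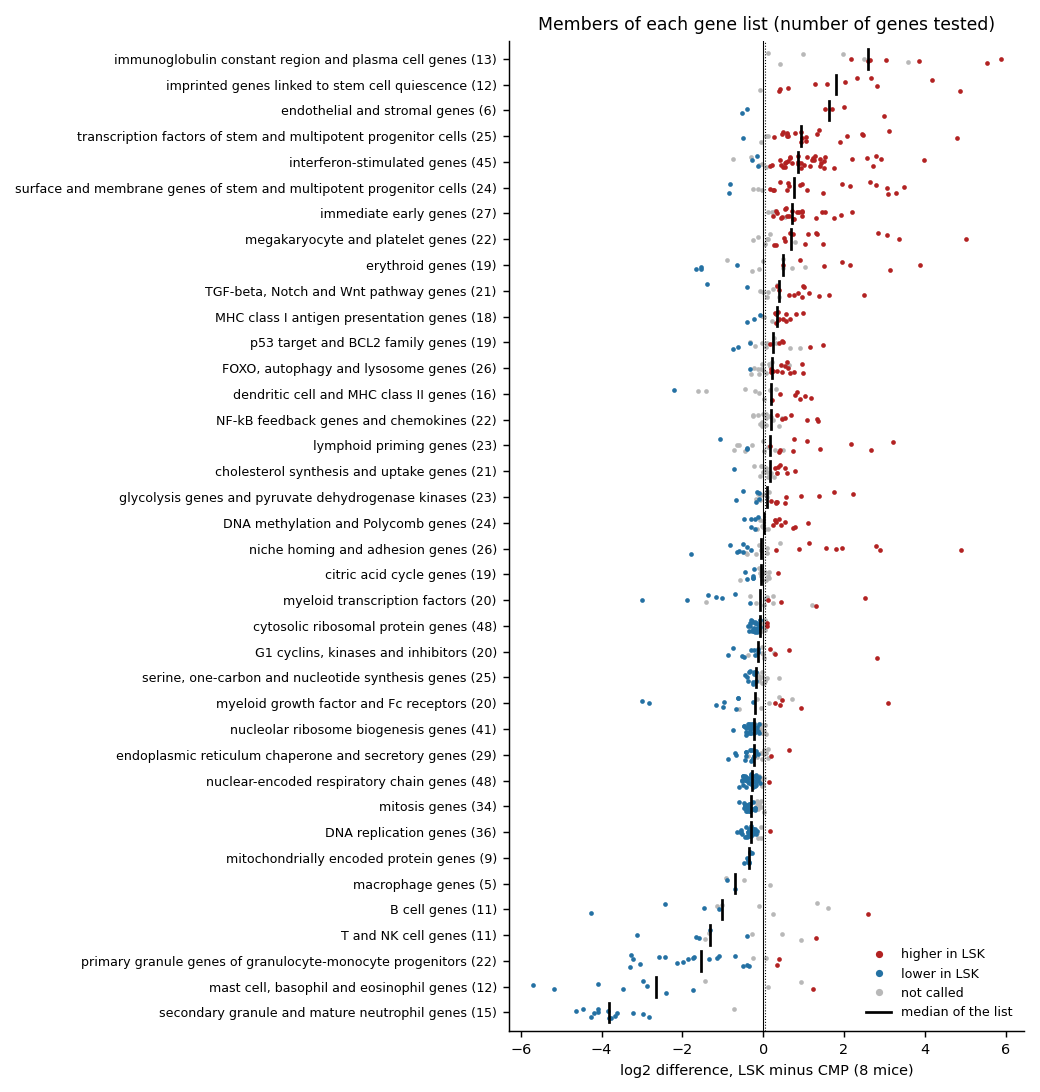
Each row is 1 gene list with the number of its genes tested, and each point is 1 gene at its log2 difference LSK minus CMP over 8 mice on the x axis, red where called higher in LSK, blue where called lower and grey where not called. Black bars mark list medians, which run from -3.81 for mature neutrophil genes to 2.58 for immunoglobulin and plasma cell genes, and the dotted line the median of all genes, 0.03.

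Genes of cells outside the 2 gates were also present and moved with the gate. Of 15 secondary granule and mature neutrophil genes tested, none were higher in LSK, 14 were lower and 1 was not called, with a median log2 difference of -3.81 (-4.95 to -2.02 in single mice). Their summed level was 343 to 3423 normalized counts in LSK (lowest in control mouse 1, highest in Cxadr-ko mouse 2) and 1679 to 117466 in CMP (lowest and highest in the same mice). Within single mice CMP exceeded LSK by 4.9- to 34.3-fold. S100a8, a calcium-binding protein of neutrophils, ran from 77.3 to 1229 (median 428) in LSK and from 378 to 36313 (median 5299) in CMP. Ngp, neutrophilic granule protein, ran from 59.2 to 647 (median 286) in LSK and from 462 to 35571 (median 4574) in CMP, and both genes overlapped between the gates. In the MEP libraries the sum reached 121140 in control mouse 3. The part of mature neutrophil RNA in the granule gene differences was not tested.

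Mast cell, basophil and eosinophil genes were mostly lower in LSK. Of 12 mast cell, basophil and eosinophil genes tested, 1 was higher in LSK, 8 were lower and 3 were not called, with a median log2 difference of -2.64 (-3.04 to -2.27 in single mice). Cpa3, mast cell carboxypeptidase, ran from 367 to 807 (median 554) in LSK and from 2862 to 5805 (median 4765) in CMP (log2 difference -2.97 ± 0.11 (SE), limma adjusted p = 3.73e-09). Hdc, histidine decarboxylase, ran from 76.3 to 127 (median 90.000) in LSK and from 519 to 962 (median 696) in CMP (log2 difference -2.87 ± 0.13 (SE), limma adjusted p = 9.87e-09). Mcpt8, a basophil protease, ran from 126 to 472 (median 290.5) in LSK and from 718 to 1152 (median 879) in CMP (log2 difference -1.74 ± 0.14 (SE), limma adjusted p = 1.08e-06). No LSK library reached the CMP range in these genes. The summed level of the list was 1124 to 2142 in LSK, 5248 to 9183 in CMP and 17389 to 35049 in GMP, and CMP exceeded LSK by 3.78- to 6.2-fold within mice. Prg2, the eosinophil major basic protein, was the 1 higher member, from 0.886 to 302 (median 12.3) in LSK and from 0 to 136 (median 4.25) in CMP (log2 difference 1.23 ± 0.39 (SE), limma adjusted p = 0.025; not called in 4 of 8 fits without 1 mouse, adjusted p up to 0.0677). Mcpt4 and Epx, defining genes of mature mast cells and eosinophils, stood at no more than 7.65 in any of the 16 libraries.

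Immunoglobulin and plasma cell genes varied most. Of 13 immunoglobulin constant region and plasma cell genes tested, 7 were higher in LSK, none were lower and 6 were not called, with a median log2 difference of 2.58 (-0.91 to 6.39 in single mice). Igkc, the kappa light chain, ran from 135 to 522081 (median 25909.9) in LSK and from 86.6 to 5886 (median 390.4) in CMP (log2 difference 5.54 ± 0.84 (SE), limma adjusted p = 0.000221; 7 of 8 mice). Jchain, the joining chain, ran from 15.4 to 73419 (median 5003) in LSK and from 16.03 to 3219 (median 32.8) in CMP (log2 difference 5.88 ± 0.87 (SE), limma adjusted p = 0.000172). Ighm, the mu heavy chain, ran from 2980.4 to 322621 (median 25738) in LSK and from 3633 to 9454 (median 4879) in CMP (log2 difference 2.17 ± 0.58 (SE), limma adjusted p = 0.00942). The LSK sum of the list was 5815 in Cxadr-ko mouse 4 and 947631 in control mouse 1, against 7287 to 26276 in CMP, and LSK over CMP ran from 0.741 to 70-fold within mice. Without mouse 1 of both genotypes 3 of 9 members were higher and the median was 1.30. The count of 7 became 3 or 4 when control mouse 1, control mouse 4 or Cxadr-ko mouse 1 alone was left out. The count was 4 without the mouse as a block and with robust variances, 5 with quantile normalization, with no filter and without the variance trend, 9 by DESeq2 and 10 by edgeR (median 3.71 by edgeR). Among 11 B cell genes tested 1 was higher and 4 lower, with Ms4a1 at no more than 58.5, Vpreb1 at no more than 44.6 and Cd79a at up to 393 in LSK and 117 in CMP. The B cell median of -1.03 became -0.46 without Cxadr-ko mouse 2, with 2 lower, -0.52 without mouse 3, with 3 lower, and -0.50 without mouse 4, with 3 higher. Without control mouse 4 it was -0.59. Without control mouse 2 or control mouse 4 none was higher and 2 were lower.

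Of 11 T and NK cell genes tested 1 was higher and 5 lower. Cd3g, a chain of the T cell receptor complex, ran from 0 to 7.48 (median 1.63) in LSK and from 3.04 to 72.8 (median 26.7) in CMP (log2 difference -3.13 ± 0.57 (SE), limma adjusted p = 0.000881), and Cd3e had at most 12.5 and Cd3d at most 62.6 in any library. Cd3g passed the filter through its CMP values alone. Lck, a T cell kinase, was instead higher in LSK, from 335 to 595 (median 552) in LSK and from 105 to 421 (median 208) in CMP (log2 difference 1.30 ± 0.19 (SE), limma adjusted p = 0.000157). Without mouse 1 of both genotypes 2 of 9 members were lower and the median went from -1.32 to -0.46. Without Cxadr-ko mouse 1, Cxadr-ko mouse 2 or control mouse 1 alone, 2 were lower. Of the macrophage genes 5 of 12 were tested and 2 were lower, with C1qa and Marco at 0 in every LSK library, C1qb at no more than 3.83 in LSK and 33.2 in CMP, and Adgre1 at up to 59.3 in LSK and 42.7 in CMP. Dendritic cell and MHC class II genes gave 7 higher and 1 lower of 16 tested (median log2 difference 0.20). H2-Eb1 and H2-Ab1, β chains of MHC class II, differed by 1.18 and 1.04. H2-Eb1 ran from 442 to 3858 (median 1352) in LSK and from 253 to 1250.0 (median 573) in CMP. H2-Ab1 ran from 2732 to 17943 (median 6653) in LSK and from 1739.9 to 6270.5 (median 3269) in CMP. Siglech, which marks plasmacytoid dendritic cells, was lower (from 0 to 97.6 (median 12.5) in LSK and from 1.15 to 330.3 (median 86.2) in CMP; log2 difference -2.21 ± 0.50 (SE), limma adjusted p = 0.0037). The dendritic sum was higher in LSK in 7 of 8 mice. Without Cxadr-ko mouse 4, 5 of its members were lower in place of 1, and without the mouse as a block 4 were higher in place of 7. Of 6 endothelial and stromal genes tested 4 were higher and 2 lower, with Cdh5 and Lepr at no more than 16.9 in any library and Cxcl12 at up to 76.6 in LSK and 9.12 in CMP.

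**Figure D4:**
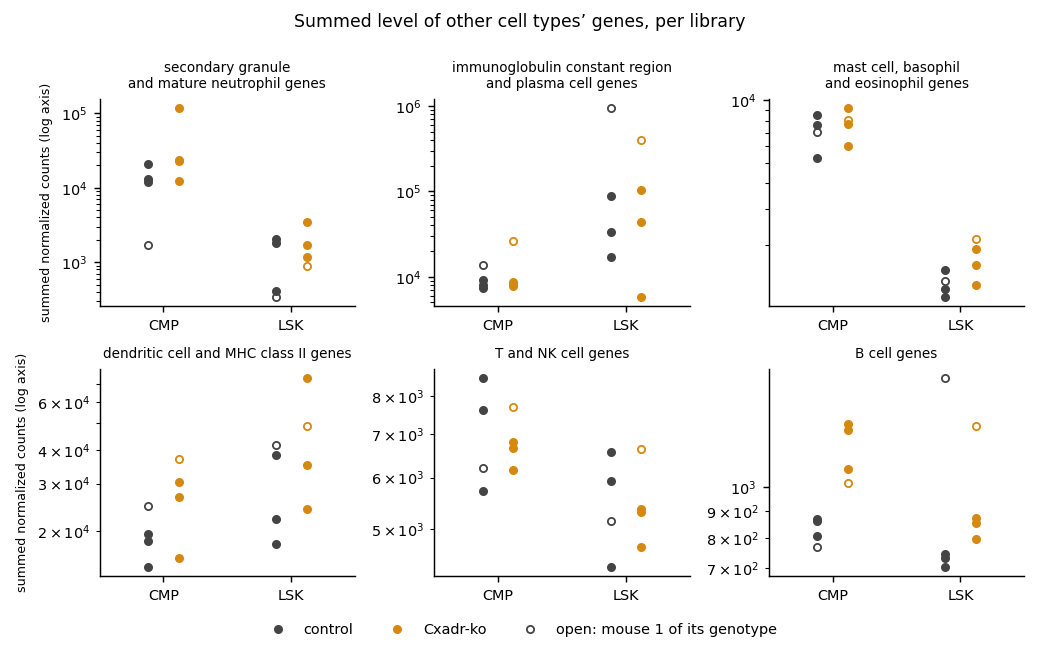
Summed normalized counts, on log axes, of the genes of 6 other cell types in each of the 8 CMP and 8 LSK libraries; grey points are control and orange points Cxadr-ko mice, and open points mouse 1 of each genotype. Neutrophil sums reach 117466 in CMP and stay at or below 3423 in LSK, and immunoglobulin sums reach 947631 in LSK.

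LSK libraries held less of the transcripts of dividing cells. Of 36 DNA replication genes tested, 1 was higher in LSK, 31 were lower and 4 were not called. The median log2 difference was -0.32 (-0.41 to -0.21 in single mice). For 12 of the 36 all LSK libraries were below all CMP libraries, beside 4.17% of all genes tested. Cdc6, which licenses replication origins, ran from 893 to 1094 (median 975) in LSK and from 1391 to 1652 (median 1482) in CMP (log2 difference -0.64 ± 0.047 (SE), limma adjusted p = 7.4e-07). Rrm2, a subunit of ribonucleotide reductase, ran from 1892 to 2448 (median 2155) in LSK and from 2847 to 3554 (median 3079) in CMP (log2 difference -0.54 ± 0.044 (SE), limma adjusted p = 1.44e-06). Pcna, the polymerase clamp, ran from 2863 to 3433 (median 3099) in LSK and from 3692 to 4367 (median 4057) in CMP (log2 difference -0.36 ± 0.033 (SE), limma adjusted p = 3.36e-06). Each difference was smaller than 2-fold yet separated the gates without overlap. Chaf1b alone was higher (log2 difference 0.16 ± 0.048 (SE), limma adjusted p = 0.0192), a call lost without control mouse 2 or 3 (adjusted p up to 0.055). Mitosis genes gave none higher and 23 lower of 34 tested (median log2 difference -0.31). Cdk1, the mitotic kinase, ran from 537 to 909.9 (median 721) in LSK and from 802 to 1201 (median 1120.2) in CMP (log2 difference -0.59 ± 0.054 (SE), limma adjusted p = 3.94e-06). Ccnb1, cyclin B1, ran from 452 to 679 (median 621) in LSK and from 705 to 977 (median 818) in CMP (log2 difference -0.47 ± 0.064 (SE), limma adjusted p = 8e-05). Mki67 and Top2a, usual markers of cycling cells, differed by -0.40 and -0.27 with overlapping ranges.

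Of the cyclins, kinases and inhibitors of G1, 4 of 20 tested were higher, 9 lower and 7 not called, with a median log2 difference of -0.14. Without the mouse as a block 2 were higher and 6 lower. Cdkn1c, the gene of the cyclin-dependent kinase inhibitor p57, had the largest difference, from 13.97 to 38.3 (median 23.9) in LSK and from 0 to 15.4 (median 3.00) in CMP (log2 difference 2.81 ± 0.40 (SE), limma adjusted p = 0.000122), at a low level. Rbl2, a retinoblastoma family pocket protein of resting cells, ran from 322 to 641 (median 518) in LSK and from 238 to 427 (median 319) in CMP (log2 difference 0.63 ± 0.071 (SE), limma adjusted p = 2.19e-05), and Ccnd2, cyclin D2, differed by 0.17. Lower in LSK were Ccne1, cyclin E1 (log2 difference -0.74 ± 0.10 (SE), limma adjusted p = 0.000101), and E2f8, an E2F factor of S phase (log2 difference -0.87 ± 0.13 (SE), limma adjusted p = 0.000175). So was Cdk6 (log2 difference -0.30 ± 0.034 (SE), limma adjusted p = 2.22e-05), a G1 kinase that still stood at 15386 ± 1517 (SD, n = 8) in LSK.

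Cdkn1c is imprinted, and most imprinted genes of the list tied to stem cell quiescence were higher. Of 12 imprinted genes linked to stem cell quiescence tested, 11 were higher in LSK, none were lower and 1 was not called. The median log2 difference was 1.79 (0.57 to 2.47 in single mice), and 7 of the 19 listed did not pass the filter. Ndn and Meg3 passed it through their LSK values alone, so the count and the median are partly fixed by the filter. With a filter at 50, 8 of 9 tested were higher and the median was 1.57. Ndn, necdin, ran from 42.7 to 119.7 (median 86.3) in LSK and from 0 to 7.11 (median 1.96) in CMP (log2 difference 4.86 ± 0.33 (SE), limma adjusted p = 3.42e-07). Meg3, a maternally expressed noncoding RNA, ran from 14.8 to 137 (median 49.99) in LSK and from 0 to 9.64 (median 1.06) in CMP (log2 difference 4.17 ± 0.41 (SE), limma adjusted p = 7.33e-06). Sgce, ε-sarcoglycan, ran from 204 to 335 (median 266) in LSK and from 35.9 to 79.01 (median 48.5) in CMP (log2 difference 2.33 ± 0.096 (SE), limma adjusted p = 6.77e-09). Grb10, a growth factor receptor adaptor, differed by 1.57. These 4 genes did not overlap between the gates, and Ndn and Meg3 were near the limit of 3 reads (2.44 to 3.56 normalized counts) in most CMP libraries.

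Genes of ribosome production and respiration were slightly lower in LSK. Of the nucleolar ribosome biogenesis genes, none of 41 tested were higher, 30 lower and 11 not called, with a median log2 difference of -0.23. Rrs1, an assembly factor of the large subunit, ran from 615 to 846 (median 751) in LSK and from 1073 to 1424 (median 1261) in CMP (log2 difference -0.74 ± 0.045 (SE), limma adjusted p = 1.39e-07). Ncl, nucleolin, ran from 12182 to 14459 (median 13072) in LSK and from 14474 to 16873 (median 15650.5) in CMP (log2 difference -0.23 ± 0.023 (SE), limma adjusted p = 8.45e-06). Myc, which drives this programme, ran from 4111 to 5346 (median 4531) in LSK and from 4917 to 7348 (median 6081) in CMP (log2 difference -0.38 ± 0.037 (SE), limma adjusted p = 6.46e-06). Ribosomal protein genes gave 2 higher and 25 lower of 48 tested (median log2 difference -0.094). Rpl3 and Rps7 were higher by 0.083 and 0.10, calls that were lost in 6 and 4 of 8 fits without 1 mouse (adjusted p up to 0.119). With quantile normalization 19 ribosomal protein genes were lower, and their median of -0.07 then stood beside -0.07 for all genes.

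Nuclear-encoded respiratory chain genes gave 1 higher and 37 lower of 48 tested (median log2 difference -0.28). Cycs, cytochrome c, ran from 2460.1 to 3469 (median 2973) in LSK and from 3961 to 5123 (median 4422) in CMP (log2 difference -0.60 ± 0.031 (SE), limma adjusted p = 3.89e-08). Ndufa4, a small subunit of the chain, ran from 5068 to 6961 (median 5985) in LSK and from 7230.4 to 9533 (median 8550.3) in CMP (log2 difference -0.50 ± 0.032 (SE), limma adjusted p = 2.57e-07). In both genes every LSK library was below every CMP library. Sdha alone was higher (log2 difference 0.15 ± 0.054 (SE), limma adjusted p = 0.046), in 6 of 8 mice and not called in 5 of 8 fits without 1 mouse (adjusted p up to 0.121). All 9 mitochondrially encoded protein genes tested were lower, from -0.49 for mt-Nd1 (from 8451 to 13611 (median 10098) in LSK and from 11774 to 17807 (median 14665) in CMP) to -0.29, with mt-Cytb at -0.33. The lower share of mitochondrial reads in LSK is drawn from the reads of the same genes, so it is not a separate measure. Among 19 citric acid cycle genes 6 were lower, such as Fh1, fumarase (log2 difference -0.46 ± 0.056 (SE), limma adjusted p = 3.76e-05), and 1 higher, Suclg2, a subunit of succinate-CoA ligase (log2 difference 0.36 ± 0.064 (SE), limma adjusted p = 0.000764). Of 25 genes of serine, one-carbon and nucleotide synthesis 11 were lower and none higher, with Shmt1 at -0.46 and Mthfd2 at -0.39; with quantile normalization 12 were lower and 1 higher.

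Of the glycolysis genes and pyruvate dehydrogenase kinases, 10 of 23 tested were higher, 6 lower and 7 not called, with a median log2 difference of 0.087 (0.025 without control mouse 1, 0.054 without Cxadr-ko mouse 4, 0.165 without Cxadr-ko mouse 2). Ldhb, the lactate dehydrogenase B chain, ran from 946 to 1427 (median 1065) in LSK and from 196 to 335 (median 214) in CMP (log2 difference 2.22 ± 0.099 (SE), limma adjusted p = 1.01e-08). Ldha, the A chain, ran from 4166 to 4857 (median 4477) in LSK and from 4414 to 5821 (median 5017) in CMP (log2 difference -0.18 ± 0.034 (SE), limma adjusted p = 0.000955). Aldoc, aldolase C, ran from 76.7 to 189 (median 135) in LSK and from 18.4 to 57.7 (median 38.8) in CMP (log2 difference 1.76 ± 0.16 (SE), limma adjusted p = 3.29e-06). Slc2a3, a glucose transporter, ran from 651 to 1101 (median 962) in LSK and from 248 to 668 (median 320.5) in CMP (log2 difference 1.39 ± 0.16 (SE), limma adjusted p = 2.51e-05). Pdk2, a kinase that shuts off pyruvate dehydrogenase, differed by 0.94. Lower in LSK were Pgam1, phosphoglycerate mutase (log2 difference -0.51 ± 0.047 (SE), limma adjusted p = 4.34e-06), and Hk3, the myeloid hexokinase (log2 difference -0.68 ± 0.057 (SE), limma adjusted p = 1.92e-06).

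Chaperone and secretory genes of the endoplasmic reticulum gave 2 higher and 18 lower of 29 tested (median log2 difference -0.24). Calr, calreticulin, ran from 4499 to 6150.4 (median 5244) in LSK and from 7743 to 9899 (median 8713) in CMP (log2 difference -0.71 ± 0.031 (SE), limma adjusted p = 9.69e-09). Sdf2l1, a cofactor of the chaperone BiP, ran from 716 to 1435 (median 1224) in LSK and from 1671 to 2658 (median 2059) in CMP (log2 difference -0.88 ± 0.069 (SE), limma adjusted p = 1.08e-06), with no overlap in either. Dnajb9, a BiP cochaperone induced by unfolded proteins, went the other way, from 2091 to 2808 (median 2519) in LSK and from 1354 to 1969 (median 1493) in CMP (log2 difference 0.63 ± 0.076 (SE), limma adjusted p = 3.83e-05), again with no overlap.

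Interferon-stimulated genes were mostly higher in LSK. Of 45 interferon-stimulated genes tested, 37 were higher in LSK, 3 were lower and 5 were not called, with a median log2 difference of 0.86 (0.63 to 1.02 in single mice), the median being 0.86 in control and 0.87 in Cxadr-ko mice. In control mice, which carry no Cre, 33 were higher and 2 lower, beside 14.9% and 12.2% of all genes. In Cxadr-ko mice 36 were higher and 1 lower, beside 15.5% and 11.3% of all genes. In 20 of the 45 all LSK libraries were above all CMP libraries, beside 5.9% of all genes tested. Iigp1, an immunity-related GTPase, ran from 289.9 to 1450.4 (median 714) in LSK and from 18.96 to 104 (median 42.3) in CMP (log2 difference 3.97 ± 0.15 (SE), limma adjusted p = 4.83e-09). Ifi44 ran from 251 to 484 (median 382) in LSK and from 30.7 to 98.4 (median 60.7) in CMP (log2 difference 2.78 ± 0.21 (SE), limma adjusted p = 7.74e-07). Irf7, the factor that amplifies the interferon response, ran from 122 to 233 (median 182) in LSK and from 59.9 to 99.5 (median 71.2) in CMP (log2 difference 1.23 ± 0.14 (SE), limma adjusted p = 2.37e-05). Ifit1, which binds foreign RNA, differed by 2.56 and Isg15, a ubiquitin-like modifier, by 1.29. Rsad2 (viperin) differed by 1.51, Oas3, an oligoadenylate synthetase, by 1.74 and Ifit3, at a low level, by 2.72 (from 6.52 to 62.2 (median 21.2) in LSK and from 0 to 30.9 (median 2.83) in CMP). The 3 lower genes were Gbp3, a guanylate-binding protein (from 472 to 852 (median 532) in LSK and from 551 to 938 (median 717) in CMP; log2 difference -0.28 ± 0.071 (SE), limma adjusted p = 0.00779), Ly6e and Ifitm2. Ly6e was lower in LSK (log2 difference -0.16 ± 0.025 (SE), limma adjusted p = 0.000331). Ifitm2 was lower (log2 difference -0.13 ± 0.046 (SE), limma adjusted p = 0.0376), and its call was lost in 6 of 8 fits without 1 mouse (adjusted p up to 0.0932). Mx1 itself, whose promoter drives the Cre and which is annotated as a polymorphic pseudogene, was not called (from 7.48 to 60.3 (median 24.5) in LSK and from 24.3 to 64.2 (median 42.8) in CMP; log2 difference -0.75 ± 0.40 (SE), limma adjusted p = 0.154).

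Promoters were searched for GAAANNGAAA on both strands, the core of the element bound by interferon-activated factors, in the window from 250 bases before to 50 after each RefSeq start site (GRCm38.p6). Of the 45 interferon genes 32 had a promoter entry and 19 of these (59.4%) held the motif, against 1079 of 27025 genes (3.99%). The motif was chosen with the results known. The stretches before the start sites of 4 genes higher in LSK and of Gbp3, which was lower, are shown because they place the motif in genes of both directions. Capitals mark GAAANNGAAA or its reverse complement TTTCNNTTTC, with overlapping matches run together, and each is written 5′ to 3′ on the gene's strand.
Ifit1 (chr19:34640760-34640838, plus strand): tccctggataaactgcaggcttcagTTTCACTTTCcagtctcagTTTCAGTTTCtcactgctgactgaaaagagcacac
Isg15 (chr4:156200850-156200921, minus strand): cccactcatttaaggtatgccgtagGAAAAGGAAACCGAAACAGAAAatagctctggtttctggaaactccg
Rsad2 (chr12:26456538-26456597, minus strand): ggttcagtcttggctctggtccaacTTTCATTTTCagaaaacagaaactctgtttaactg
Oas3 (chr5:120777700-120777759, minus strand): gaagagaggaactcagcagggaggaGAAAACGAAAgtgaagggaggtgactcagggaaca
Gbp3 (chr3:142559974-142560039, plus strand): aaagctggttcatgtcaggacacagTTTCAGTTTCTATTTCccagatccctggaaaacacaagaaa
Ifit1 holds 2 matches and the first lies 104 bases before the start site, and Isg15 holds 3 overlapping ones, the first 78 bases before it. In Rsad2 and Oas3 the single match lies 120 and 75 bases before the start, and in Gbp3 the first of 2 lies 45 bases before it. A match describes the letters only. Of the 27 interferon genes that were higher and had a promoter entry 15 held the motif (55.6%), and of the 5 others with an entry 4 did.

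Of 18 MHC class I antigen presentation genes tested, 12 were higher in LSK, 3 were lower and 3 were not called, with a median log2 difference of 0.34 (0.16 to 0.46 in single mice). H2-K1, a class I heavy chain, ran from 14457 to 17218 (median 16470.3) in LSK and from 10246 to 12151 (median 10912) in CMP (log2 difference 0.57 ± 0.031 (SE), limma adjusted p = 6.63e-08). B2m, its light chain, ran from 42633 to 50242 (median 45251) in LSK and from 32176 to 40367 (median 37849) in CMP (log2 difference 0.31 ± 0.029 (SE), limma adjusted p = 4.81e-06), with no overlap between the gates. Lower members were Psmb8, a catalytic subunit of the immunoproteasome, at -0.22 and Psme2, a proteasome activator subunit, at -0.40 (from 2717 to 3513 (median 2855) in LSK and from 3535 to 4543 (median 3719) in CMP).

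Immediate early genes, transcribed within minutes of a stimulus and also of cell dissociation, were higher in LSK. Of 27 immediate early genes tested, 23 were higher in LSK, none were lower and 4 were not called, with a median log2 difference of 0.71 (0.34 to 1.0 in single mice). Nr4a1, an orphan nuclear receptor, ran from 13516 to 21049 (median 18367) in LSK and from 3609 to 8675 (median 5617) in CMP (log2 difference 1.75 ± 0.093 (SE), limma adjusted p = 5.07e-08). Its relative Nr4a2 ran from 1606 to 3743 (median 2095) in LSK and from 327 to 888 (median 424) in CMP (log2 difference 2.18 ± 0.084 (SE), limma adjusted p = 4.83e-09). Egr1, a zinc finger factor, ran from 2496 to 5875 (median 3119.5) in LSK and from 435 to 1886 (median 1417) in CMP (log2 difference 1.46 ± 0.17 (SE), limma adjusted p = 2.37e-05). These 3 did not overlap. Fos, a subunit of the AP-1 factor, stood at 47926 ± 6145 (SD, n = 8) in LSK and differed by 0.71. How long the cells of each gate waited before lysis is not given, and its part in these values was not tested. Of 22 NF-kB feedback genes and chemokines 7 were higher and none lower, beside 22.7% and 17.8% of all genes, with a list median of 0.18. Among the higher were Nfkbiz (log2 difference 0.67 ± 0.066 (SE), limma adjusted p = 6.5e-06) and Cd83 (log2 difference 1.35 ± 0.23 (SE), limma adjusted p = 0.000529). Of 19 p53 target and BCL2 family genes 6 were higher and 3 lower, beside the same shares of all genes. Without mouse 1 of both genotypes 3 of these genes were higher and 2 lower. Their median of 0.24 was 0.16 without Cxadr-ko mouse 3. Bcl2, which protects from apoptosis, ran from 909 to 1259 (median 972) in LSK and from 1509 to 1893 (median 1769) in CMP (log2 difference -0.76 ± 0.055 (SE), limma adjusted p = 6.28e-07), and Pmaip1, the gene of the pro-apoptotic NOXA, was lower as well (log2 difference -0.64 ± 0.18 (SE), limma adjusted p = 0.0134). Mcl1, the survival factor on which stem cells depend, was higher (log2 difference 0.49 ± 0.062 (SE), limma adjusted p = 5.12e-05), as was Trp53inp1 (log2 difference 1.16 ± 0.30 (SE), limma adjusted p = 0.00802).

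Among niche homing and adhesion genes, 9 of 26 tested were higher, 8 lower and 9 not called, with a median log2 difference of -0.048 (-0.13 without Cxadr-ko mouse 3, -0.02 without control mouse 1). Jam2, F11r, Jam3 and Esam, relatives of Cxadr in the junctional adhesion family, were higher. Jam2 ran from 62.2 to 288 (median 106) in LSK and from 0 to 6.87 (median 2.91) in CMP (log2 difference 4.89 ± 0.32 (SE), limma adjusted p = 2.76e-07). It passed the filter through its LSK values alone, so its difference and its place in the count are partly fixed by the filter. F11r, which encodes JAM-A, ran from 295 to 494 (median 432) in LSK and from 37.2 to 77.9 (median 54.5) in CMP (log2 difference 2.89 ± 0.13 (SE), limma adjusted p = 9.87e-09). Jam3 ran from 19.5 to 47.3 (median 26.4) in LSK and from 0.931 to 28.8 (median 5.90) in CMP (log2 difference 1.94 ± 0.39 (SE), limma adjusted p = 0.00158; 7 of 8 mice), and Esam, of the same family, is given above. Cxadr itself differed by 0.085. Alcam (1.55) and Itga6, the integrin α6 chain (0.89), were also higher. Lower in LSK was Ccr2, the receptor of monocyte chemokines (from 101 to 485 (median 271) in LSK and from 525 to 1704 (median 911) in CMP; log2 difference -1.78 ± 0.24 (SE), limma adjusted p = 7.34e-05). Selplg, the P-selectin ligand, was lower too (from 2430.5 to 3031 (median 2602) in LSK and from 3246 to 4463 (median 3576) in CMP; log2 difference -0.51 ± 0.054 (SE), limma adjusted p = 1.16e-05).

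Genes of the TGF-β, Notch and Wnt pathways gave 12 higher and 2 lower of 21 tested (median log2 difference 0.38). Beside Hes1, the inhibitors of TGF-β signalling Skil (log2 difference 1.37 ± 0.083 (SE), limma adjusted p = 1.47e-07) and Smad7 (log2 difference 1.01 ± 0.096 (SE), limma adjusted p = 4.92e-06) were higher, as was Tcf7l2, a Wnt effector (log2 difference 0.95 ± 0.066 (SE), limma adjusted p = 4.57e-07). Dtx4, a Notch regulator, was lower, from 41.1 to 111 (median 83.8) in LSK and from 135 to 288 (median 242) in CMP (log2 difference -1.40 ± 0.17 (SE), limma adjusted p = 3.78e-05). The median of this list moved to 0.60 without Cxadr-ko mouse 4. FOXO, autophagy and lysosome genes gave 13 higher and 1 lower of 26 tested (median log2 difference 0.21). Klf9 (log2 difference 0.96 ± 0.12 (SE), limma adjusted p = 3.43e-05) and Gabarapl1, an autophagosome protein gene (log2 difference 0.65 ± 0.052 (SE), limma adjusted p = 1.3e-06), were higher. Foxo3, a factor that keeps stem cells quiescent, was higher too (log2 difference 0.59 ± 0.065 (SE), limma adjusted p = 1.84e-05). Lamp1, a lysosomal membrane protein gene, was lower (log2 difference -0.33 ± 0.055 (SE), limma adjusted p = 0.000463). Of 21 cholesterol genes 7 were higher and 1 lower, beside 22.7% and 17.8% of all genes. Among the higher was Srebf2, the master regulator of these genes (log2 difference 0.79 ± 0.078 (SE), limma adjusted p = 6.93e-06). The lower gene was Fdps, farnesyl diphosphate synthase (log2 difference -0.72 ± 0.10 (SE), limma adjusted p = 0.000121). Without Cxadr-ko mouse 4 this list had 8 higher, 2 lower and a median of 0.11. DNA methylation and Polycomb genes had 9 higher and 6 lower of 24, with Tet1 (log2 difference 0.74 ± 0.07 (SE), limma adjusted p = 5.11e-06) and the demethylase Kdm6b (log2 difference 0.77 ± 0.074 (SE), limma adjusted p = 5.54e-06) higher and Tet2 lower (log2 difference -0.47 ± 0.11 (SE), limma adjusted p = 0.00408). Their median of 0.01 was negative under TMM scaling, quantile normalization and edgeR.

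The same comparison was then read in each genotype, 4 mice at a time. In control mice 2558 genes (14.9%) were higher and 2095 (12.2%) lower in LSK, and in Cxadr-ko mice 2678 (15.5%) were higher and 1945 (11.3%) lower. Of these 3237 were called in both, 69.6% of the control calls and 70% of the Cxadr-ko calls, and 3236 of the 3237 had the same direction. The 1713 genes called over 8 mice with at least a 2-fold difference had the same direction in both genotypes without exception, as did all but 1 of the 6967 genes called over 8 mice. Both agreements are partly fixed by the choice, since both genotypes enter the mean. Over all 17225 genes the direction was shared by 77.4%, and Pearson's r across genes between the differences in control and Cxadr-ko mice was 0.80; genes are not independent replicates, and no libraries are shared between the 2 sets. Fitted with the libraries of 1 genotype alone, 5404 of the 15563 genes tested in both were called in control and 3086 in Cxadr-ko mice, and all 2660 called in both had the same direction.

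**Figure D5:**
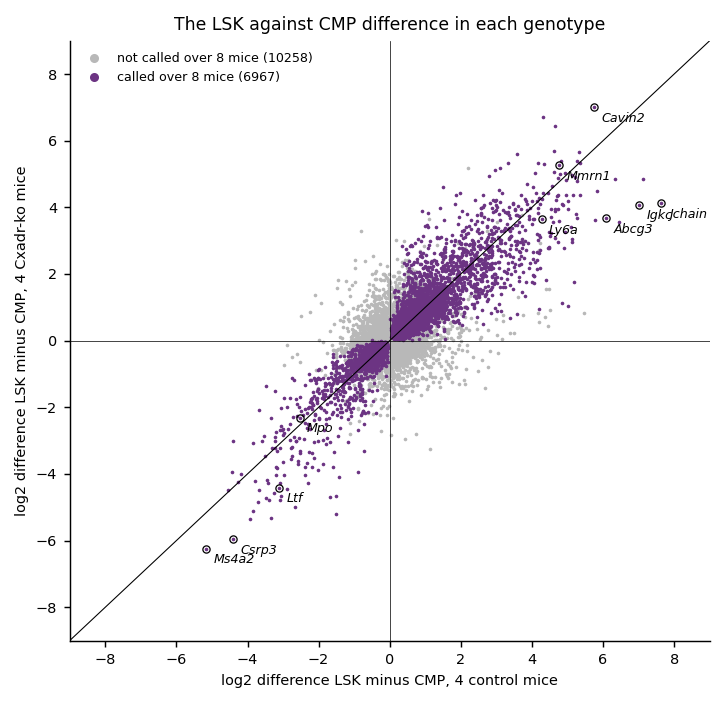
Each point is 1 of 17225 genes, with its log2 difference LSK minus CMP in the 4 control mice on the x axis and in the 4 Cxadr-ko mice on the y axis; purple points are the 6967 genes called over 8 mice and the diagonal marks equal differences. Called genes lie along the diagonal, with the immunoglobulin gene Igkc and Jchain to the right of it.

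The difference between the genotypes was tested directly as an interaction. By limma 0 of 17225 genes were called (0.0%), with 1095 (6.36%) at an unadjusted p under 0.05; edgeR called 0 and DESeq2 24. The 3 genes of lowest p were Cd53, a leukocyte tetraspanin, Klf6, an immediate early factor, and Gna13, a G protein. Cd53 had a log2 difference of -0.78 in control and -0.30 in Cxadr-ko mice (difference 0.47 ± 0.067 (SE), limma adjusted p = 0.318). Klf6 was higher by 0.44 and 0.76 (0.32 ± 0.052, limma adjusted p = 0.530). Gna13 was higher by 0.19 and 0.58 (0.39 ± 0.067, limma adjusted p = 0.530). In the other limma and edgeR settings the adjusted p of these 3 lay between 0.209 and 0.9995. DESeq2 called all 3 (adjusted p = 6.99e-06, 0.0018 and 0.00952), and of its 24 genes 21 had the larger LSK minus CMP value in Cxadr-ko mice. Plac8 (-1.48 in control, -1.21 in Cxadr-ko mice), Nr4a2 (1.95 and 2.41), Skil (1.14 and 1.59) and Ltf (-3.11 and -4.41) were the other named genes among them, Ltf being 1 of the 3 with the lower value.

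The list medians differed between the genotypes to varying degrees. Stem cell transcription factors had medians of 0.84 for control and 0.88 for Cxadr-ko mice. In the same order, the medians of granule genes were -1.54 and -1.33, those of DNA replication genes -0.29 and -0.34 and those of respiratory chain genes -0.29 and -0.27. The widest gaps were in lists of other cells, immunoglobulin and plasma cell genes (3.82 and 1.35), mast cell, basophil and eosinophil genes (-3.08 and -2.11) and mature neutrophil genes (-3.41 and -4.25). Counts within a genotype stand beside 14.9% of all genes higher and 12.2% lower in control, and 15.5% and 11.3% in Cxadr-ko mice. NF-kB genes had a median of -0.0022 in control, with 6 higher and 3 lower, and of 0.35 in Cxadr-ko mice, with 10 higher and none lower. Medians of opposite sign were also found for myeloid transcription factors (-0.36 and 0.026), glycolysis genes (0.22 and -0.029), p53 and apoptosis genes (-0.011 and 0.43) and DNA methylation and Polycomb genes (-0.0059 and 0.24). B cell genes had medians of -0.019 and -0.77, and T and NK cell genes of -0.48 and -1.03. Immediate early genes were called higher in 16 of 27 in control and 26 of 27 in Cxadr-ko mice, and mitosis genes lower in 23 and 13 of 34. No member of these lists was called for the difference between the genotypes by limma, so a count that differs here is not a shown difference. The DESeq2 calls did hold list members, Nr4a2 of the immediate early, Plac8 of the granule and Ltf of the neutrophil genes. They also held Nfkbia (difference 0.34), Rel (0.41), Ier2 (0.46) and Cdkn1a (0.54), with the larger value in Cxadr-ko mice. Of the 24 DESeq2 genes 3, Ltf among them, had the lower value.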

How the data were processed

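RNA was measured in sorted bone marrow gates of 8 mice, and the 8 LSK and 8 CMP libraries of the same animals were compared. Libraries were made with a low-input kit from cells sorted into TRIzol, per the labels' protocols. Per the submitters' processing notes STAR, DESeq2 and the builds GRCm38 and mm10 were used; they name no read counter and no annotation release. The deposited values are a signal, gene counts divided by 1 size factor per library: all 765992 values above 0 were whole reads (100.0%, within 0.001 reads) once divided by the library's step. 

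Genes with at least 10 normalized counts in at least 4 of 16 libraries (17225 of 55487) were tested on log2(normalized count + 1) with limma 3.58.1 (R 4.3.3, mean-variance trend, two-sided) and the mouse as a block; adjusted p is Benjamini-Hochberg over all genes tested, called under 0.05. The difference in each genotype and their interaction came from a second fit of the same libraries. edgeR 4.0.16 and DESeq2 1.42.0 on the recovered reads were alternatives. The limma fit was also run on simulated reads with the same dispersion for every gene. It called 28.4% of simulated log2 differences of 0.5, 98.5% of those of 1 and 100% of those of 2. Of simulated genotype differences of 2 it called 93%, and smaller ones were not simulated. Genes noisier than the simulated ones would be called less often, so a gene not called may still differ. The labels give gates of 1 mouse the same genotype and replicate number. Deviations of same-numbered LSK and CMP libraries from their group means had r 0.040 to 0.330, against -0.18 to 0.047 between mice. These ranges overlap, with the lowest same-mouse r, 0.040, in Cxadr-ko mouse 3. Deviations from means of 4 libraries lower r between mice, so the contrast is partly built in. P-values measure the spread between mice of the LSK minus CMP difference, not of the level itself. Replicate libraries differed beyond sampling noise (chi-square over degrees of freedom 6.76 to 107).

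Members and gene lists were chosen with earlier results of these data known, and list counts are descriptions without a set test. Named genes are the gate markers and Cxadr, the 12 largest differences in each direction (called, same direction in 8 of 8 mice, mean of at least 100 in the higher gate, no immunoglobulin or T cell receptor segments), the 6 genes of lowest p, the 3 of lowest interaction p, and, for every list, the called members of lowest p (up to 6) plus up to 3 called against the majority. The defining markers of other cells are given by level alone. Of 189 genes followed 18 lie outside this rule, picked with their values in view: Hoxa9, Slamf1, Elane, Cebpe, Klf1, Dntt, Top2a, Ifit1, Isg15, Irf7, B2m, Oas3, Rsad2, Ifit3, Egr1, Fos, Jam3 and Mx1. Strand was not known to be used in counting, so overlapping and antisense genes, and near-identical copies such as ribosomal protein genes and their pseudogenes, are uncertain.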

Additional observations from a re-analysis of the deposited data

Results flagged for a closer look

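In 38 of 516 groups of 4 mice, 1 mouse stood far from the other 3 by Dixon's criterion; chance gives about 1 in 20. Values are single-mouse log2 differences LSK minus CMP unless a sum or share is named, and the range of the other 3 mice is in brackets. Cxadr-ko mouse 1 stood apart in Hoxa10 2.52 (2.64 to 2.67), Myct1 1.92 (1.11 to 1.19), Procr 3.52 (2.42 to 2.53), Vwf 4.60 (1.96 to 2.40), Pgam1 -0.44 (-0.60 to -0.57) and the median of megakaryocyte and platelet genes 0.87 (0.33 to 0.39). Cxadr-ko mouse 2 stood apart in Hlf 1.44 (2.23 to 2.35), Zeb2 -1.42 (-0.96 to -0.90), Gp9 2.59 (0.90 to 1.18), Rps7 0.15 (0.059 to 0.069), the median of DNA replication genes -0.22 (-0.39 to -0.37) and the median of FOXO, autophagy and lysosome genes 0.094 (0.28 to 0.31). Cxadr-ko mouse 3 stood apart in Ccnd2 0.34 (0.12 to 0.12), Iigp1 4.94 (3.74 to 3.89) and Psme2 -0.44 (-0.38 to -0.37). Cxadr-ko mouse 4 stood apart in Kit 0.33 (0.49 to 0.52), Elane -4.0 (-2.76 to -2.54), Rsad2 0.39 (1.76 to 2.00) and Mcl1 0.79 (0.56 to 0.58). Control mouse 1 stood apart in Retnlg -2.64 (-5.21 to -4.84). Control mouse 2 stood apart in Mki67 -0.57 (-0.36 to -0.35), the median of cytosolic ribosomal protein genes -0.034 (-0.18 to -0.16) and the median of nuclear-encoded respiratory chain genes -0.21 (-0.31 to -0.30). Control mouse 3 stood apart in Pdk2 1.25 (0.62 to 0.71) and the median of G1 cyclins, kinases and inhibitors -0.085 (-0.14 to -0.13). Control mouse 4 stood apart in Mmp8 -5.75 (-3.85 to -3.60), Klf1 -0.50 (-2.24 to -1.95) and Rab27b 0.25 (1.79 to 1.98).

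In control mouse 1 mitochondrially encoded protein genes took 1.24% of the CMP reads (1.54% to 1.6% in the others). In control mouse 1 immunoglobulin genes took 12.5% of the LSK reads (0.156% to 1.20% in the others). In Cxadr-ko mouse 1 immunoglobulin genes took 0.287% of the CMP reads (0.0456% to 0.0616% in the others). The CMP sum of neutrophil genes was 117500 normalized counts in Cxadr-ko mouse 2 (12250 to 23920 in the others). The LSK sum of immunoglobulin and plasma cell genes was 947600 normalized counts in control mouse 1 (17000 to 88420 in the others). The CMP sum of immunoglobulin and plasma cell genes was 26280 normalized counts in Cxadr-ko mouse 1 (7844 to 8581 in the others). The LSK sum of B cell genes was 1622 normalized counts in control mouse 1 (704 to 745 in the others). The LSK sum of B cell genes was 1313 normalized counts in Cxadr-ko mouse 1 (796 to 873 in the others). The LSK sum of megakaryocyte genes was 10540 normalized counts in control mouse 4 (11490 to 11680 in the others). The LSK sum of granule genes was 47910 normalized counts in control mouse 2 (56280 to 57240 in the others).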

How the results depend on the processing

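Of the 189 genes followed at most 6 were tested and lost their call in any 1 alternative, and with a filter at 50 only 181 were tested. Without a replicate block, that is without the mouse as pairing term, 3495 genes were higher and 2772 lower (6109 of the main calls shared), and no count over all genes moved by over 1.5 times. Of the list counts, those of genes higher went from 7 to 4 for immunoglobulin and plasma cell genes and for dendritic cell genes, from 4 to 2 for G1 genes, from 2 to 1 for ribosomal protein and endoplasmic reticulum genes and from 1 to 0 for B cell, mast cell and respiratory chain genes. Counts of 5 or fewer in these and other lists moved by over 1.5 times under other alternatives as well, such as 5 to 3 lower T and NK cell genes by edgeR, 1 to 3 lower dendritic cell genes by DESeq2 and 3 to 5 lower lymphoid and p53 genes with quantile normalization. edgeR called 3581 higher and 3285 lower, DESeq2 3747 and 3035, and TMM scaling 3677 and 3340. Leaving out 1 mouse gave 3467 to 3797 higher and 2688 to 3034 lower. The genes at least 2-fold higher were 694 with a filter at 50, and those at least 2-fold lower 199 with that filter, which tests fewer genes, and 607 with quantile normalization. For the difference between the genotypes DESeq2 called 24 genes where limma and edgeR called 0; the cause was not tested. Cxadr, not called, changed sign to -0.14 with quantile normalization and ranged from -0.17 to 0.33 without 1 mouse, with -0.0027 without control mouse 4. Medians near 0 changed sign: myeloid transcription factors to 0.034 without mouse 1 of both genotypes, and DNA methylation and Polycomb genes to -0.0058 with edgeR, -0.0051 with TMM, -0.023 with quantile normalization, and from -0.027 (without Cxadr-ko mouse 4; -0.009 without Cxadr-ko mouse 2) to 0.0715 (without Cxadr-ko mouse 3) when 1 mouse was left out. The endothelial and stromal median was -0.41 with a filter at 50, which leaves fewer of its genes. Without mouse 1 of both genotypes the LSK minus CMP difference was 1007.8 genes detected and 0.596 percentage points of immunoglobulin reads, each with an exact permutation p = 0.0625. Il7r was called without Cxadr-ko mouse 3 alone (limma adjusted p = 0.0282; 0.0282 to 0.277 over the 8 fits). Depth limits genes near 3 reads, 2.44 to 3.56 normalized counts.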

Other observations

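The other gates place the genes that separate LSK from CMP. Of the 1360 genes at least 2-fold higher in LSK, 993 had a lower mean in GMP than in CMP and 365 a higher one, while 482 had a lower mean in MEP than in CMP and 876 a higher one. Of the 353 genes at least 2-fold lower in LSK, 220 had a higher mean in GMP than in CMP and 149 a higher mean in MEP. These are descriptions without a test, since the CMP libraries enter both sides.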
